A study of Homo sapiens with 15 samples.

Results

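The cytosolic and mitochondrial molecular chaperones of an immortalized human astrocyte line were followed after induction of a mutant IDH1. They were taken by gene symbol: the HSPA, HSPB, HSPD, HSPE, HSPH and HSP90A genes, the numbered DNAJA, DNAJB and DNAJC genes, the CCT genes, and TCP1, CRYAB, TRAP1, BAG3, STIP1 and HSF1. HSPA5, HSPA13, DNAJB9, DNAJB11, DNAJC3 and DNAJC10, which belong to the endoplasmic reticulum, were not among them, nor were HSPBAP1 and HSPBP1. The choice went by symbol and used no measured value, although it was made with earlier results of these data known. It gave 75 of the 16324 genes listed in either of the deposited count tables. By role they were 9 genes of the CCT/TRiC chaperonin, 11 of the cytosolic HSP70 and HSP110 families, 3 of the HSP90 system (HSP90AA1, HSP90AB1 and STIP1), 5 mitochondrial chaperones, 4 small heat shock proteins, 34 other J-domain genes, and the regulators HSF1 and BAG3. The last 7 carry a matching symbol without being established chaperones: HSPB11, a subunit of the intraflagellar transport machinery, and CCT6P1, CCT6P3, HSP90AB3P, HSPA8P8, HSPB1P1 and HSPE1P2, all named as pseudogenes.

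Chaperones bind unfolded or partly folded proteins and let them fold, refold or pass on to degradation. HSP70 works in cycles of ATP hydrolysis that J-domain proteins start and HSP110 proteins help to end. STIP1 passes clients from HSP70 to HSP90, the TRiC ring folds actin and tubulin, and HSPD1 with its lid HSPE1 folds proteins in the mitochondrial matrix. Small heat shock proteins hold unfolded clients without ATP. HSF1 is the transcription factor of the heat shock response, and CRYAB, the small heat shock protein alpha-B-crystallin, is known as an abundant stress protein of astrocytes.

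The study asked what the induced mutant IDH1, an enzyme that makes 2-hydroxyglutarate, does to gene expression in these cells. The cells were immortalized human astrocytes (IHA), a fetal line carrying SV40, grown in Prigrow IV medium with serum and EGF, and doxycycline at 1 µg/ml was the inducer. The genotype label reads WT IDH1 in all 15 samples, so it does not separate the groups. Untreated cells gave 6 samples, 3 tagged b1 and 3 tagged b2. Day 7 gave 5, of which 1 was tagged b1 and 4 b2, and day 3 gave 4, each tagged b2. The tag is read here as a batch. The labels give untreated samples no day and name no control with the drug but without the transgene, so time in culture and the drug itself cannot be told apart from the mutant enzyme. The labels do not say that samples of a group were separate cultures, and the p-values therefore measure only the spread between these samples. Each library counted unique molecular identifiers (UMIs) at the 3′ ends of transcripts, by bulk MARS-seq.

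One table holds the untreated and day 7 libraries of b1 and b2, with 2573290 to 5567651 UMIs per library. The other holds the untreated, day 3 and day 7 libraries of b2, with 1816599 to 4656705 UMIs. Levels below are CPM, UMIs scaled to the library size after TMM normalization, and since each transcript gives 1 end they are not divided by length. IDH1 itself stood at 26.4 to 36.8 CPM untreated and 28.6 to 43.4 CPM at day 7, with a log2 change of 0.22 ± 0.11 (SE, adjusted p = 0.178 by edgeR). Whether a 3′ tag can tell the introduced gene from the cells' own IDH1 is not stated in the labels, and these counts therefore check no induction. Of 12 astrocyte markers 8 were listed, and the defining GFAP, AQP4, ALDH1L1 and SLC1A2 were not. In bulk samples, fewer cells of a kind and less RNA per cell cannot be told apart. Within b2, mitochondrially encoded transcripts took 1.23% to 1.31% of UMIs untreated and 1.58% to 1.72% at day 7, and the 8 listed astrocyte markers summed to 7107 to 8322 CPM untreated and 8258 to 10014 CPM at day 7, most of it VIM. In b1 that sum was 6709 to 7425 CPM untreated and 6882 CPM at day 7. Of the 7 astrocyte markers tested at day 7, 2 were called higher and 1 lower. ALDOC stood at 48.6 to 51.9 CPM untreated and 27.7 to 37.4 CPM at day 7 in b2. Of other cell types, the 1 listed microglia marker of 5 was called higher at day 7 (log2 1.51, at 0.182 to 3.98 CPM over the libraries), and MBP, the 1 listed oligodendrocyte marker of 4, lower (-0.44). Of 6 neuron markers 3 were listed in each table. TUBB3 was listed in the day 3 and day 7 table alone, and MAP2 in the day 7 table alone. Of the 2 tested at day 3, 1 was called higher and the other had a log2 change below 0. In that table the listed 3 summed to 78.2 to 91.8 CPM untreated and 119.7 to 134 CPM at day 3. In the day 7 table, without TUBB3, the b2 sum was 14.9 to 17.2 CPM untreated and 11.5 to 14.7 CPM at day 7. No endothelial marker was listed. COL1A1, 1 of 2 listed fibroblast and pericyte markers of 5, stood at 692.5 to 803 CPM in untreated b1 and 238 to 268 CPM in untreated b2. The part of these shifts in the results was not tested. The chaperones together took 1.35% to 1.37% of UMIs in the untreated b2 libraries and 1.47% to 1.54% at day 7 of b2. In b1 they took 1.22% to 1.27% untreated and 1.20% in the day 7 library, below all 3 untreated ones.

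HSF1 binds repeats of the unit GAA (or TTC on the other strand) set 2 bases apart, and stretches that carry such repeats are shown for members that rose, that fell and that did not pass the test. RefSeq promoters of GRCh38.p14 were found for 60 of the 75 genes, 82 promoters in all, and the bases upstream of each start were searched. CRYAB and HSF1 were among the genes without one, so neither was searched. A 3-unit element, GAANNTTCNNGAA or its reverse complement TTCNNGAANNTTC, was found in 5 of the 82 (6.1%), against 0.441% of 35116 promoters of all genes. Each is printed on the gene's own strand, with the 3-unit match in capitals. In HSPD1 a further unit follows the match at the same spacing, in lower case.
HSPD1 (chr2:197500065-197500090, minus strand): gcattTTCTGGAAAGTTCtggaaccg
HSP90AB1 (chr6:44247770-44247798, plus strand): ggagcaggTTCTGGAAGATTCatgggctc
HSPA8 (chr11:123062346-123062374, minus strand): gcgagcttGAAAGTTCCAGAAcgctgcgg
HSP90AA1 (chr14:102087112-102087140, minus strand): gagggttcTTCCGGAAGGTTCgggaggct
DNAJB6 (chr7:157336865-157336893, plus strand): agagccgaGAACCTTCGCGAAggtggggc
The first 3 of these genes rose at day 7, and the other 2 did not pass the test. A match is a description of the letters, not a measured site of binding.

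The 2-unit form, GAANNTTC or TTCNNGAA, which also lies within every 3-unit match, was in 20 of the 82 promoters (24.4%) and in 11.6% of all. It is shown for the inducible HSP70 pair and its J-domain partner DNAJB1, none of which passed the test at day 7, and for HSPB1 and HSPB6, which fell.
HSPA1A (chr6:31815426-31815455, plus strand): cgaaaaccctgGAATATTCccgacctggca
HSPA1B (chr6:31827622-31827651, plus strand): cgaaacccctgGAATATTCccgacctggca
DNAJB1 (chr19:14518456-14518485, minus strand): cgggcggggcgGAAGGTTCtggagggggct
HSPB1 (chr7:76302480-76302509, plus strand): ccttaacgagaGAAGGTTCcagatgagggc
HSPB6 (chr19:35757221-35757250, minus strand): ttagtttcctcTTCTGGAAattggggaatc
Upstream of their starts HSPA1A and HSPA1B shared 235 of 249 bases (94.4%). The longest run that the 2 transcripts share is 404 bases within their last 1000 and 54 bases within their last 500, so reads from the farther stretch can be hard to assign to 1 of them.
HSPD1 and HSPE1 lie head to head on chromosome 2. The HSPD1 element above is upstream of the farther HSPD1 start, at 197499840. The HSPE1 start at 197500379 is 105 bases from the nearer HSPD1 start, and between them lies CACGTG, the E-box palindrome bound by MYC and its relatives.
HSPD1-HSPE1 (chr2:197500345-197500374, plus strand): gggtgattttttCACGTGtcgccagggccg
TATAAA (or TTTATA on the other strand), the core of the TATA box, was in 11 of the 82 (13.4%) and in 10.7% of all. CACGTG was in 6 of the 82 promoters of chaperone genes (7.32%) and in 6.34% of all. The site between HSPD1 and HSPE1 is upstream of both starts and is counted for each gene.

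At day 7 of doxycycline 5 of 8 tested genes of the cytosolic chaperonin and the mitochondrial pair HSPD1 and HSPE1 rose, by at most 1.38-fold, and 3 of 4 small heat shock proteins fell. Of the 75 genes 66 passed the filter on low counts, and 22 of them passed a Benjamini-Hochberg adjusted p of 0.05 in edgeR's quasi-likelihood test, fitted with batch as a term. Of these 14 rose and 8 fell, against 15.7% of all 12449 genes tested (8.43% higher and 7.28% lower). The median log2 change of the 66 was 0.12, and that of all tested genes was -0.02. With scaling by library size alone the split was 9 higher and 9 lower, with 16.8% of all genes called. The median of all genes moved to -0.09 under that scaling. Without the batch term 2.71% of all 11927 genes tested were called and 7 chaperone genes (CCT2, CCT3, CCT5, HSPA8, HSPA2, CRYAB and HSPB1). With the batch term kept and untreated b2-1 left out, 14 chaperone genes were called, against 11.1% of all 12711 genes tested. The 9 genes that did not pass the filter were CCT6B, CCT6P1, CCT6P3, DNAJC12, DNAJC28, DNAJC30, HSP90AB3P, HSPA12B and HSPE1P2.

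**Figure D1:**
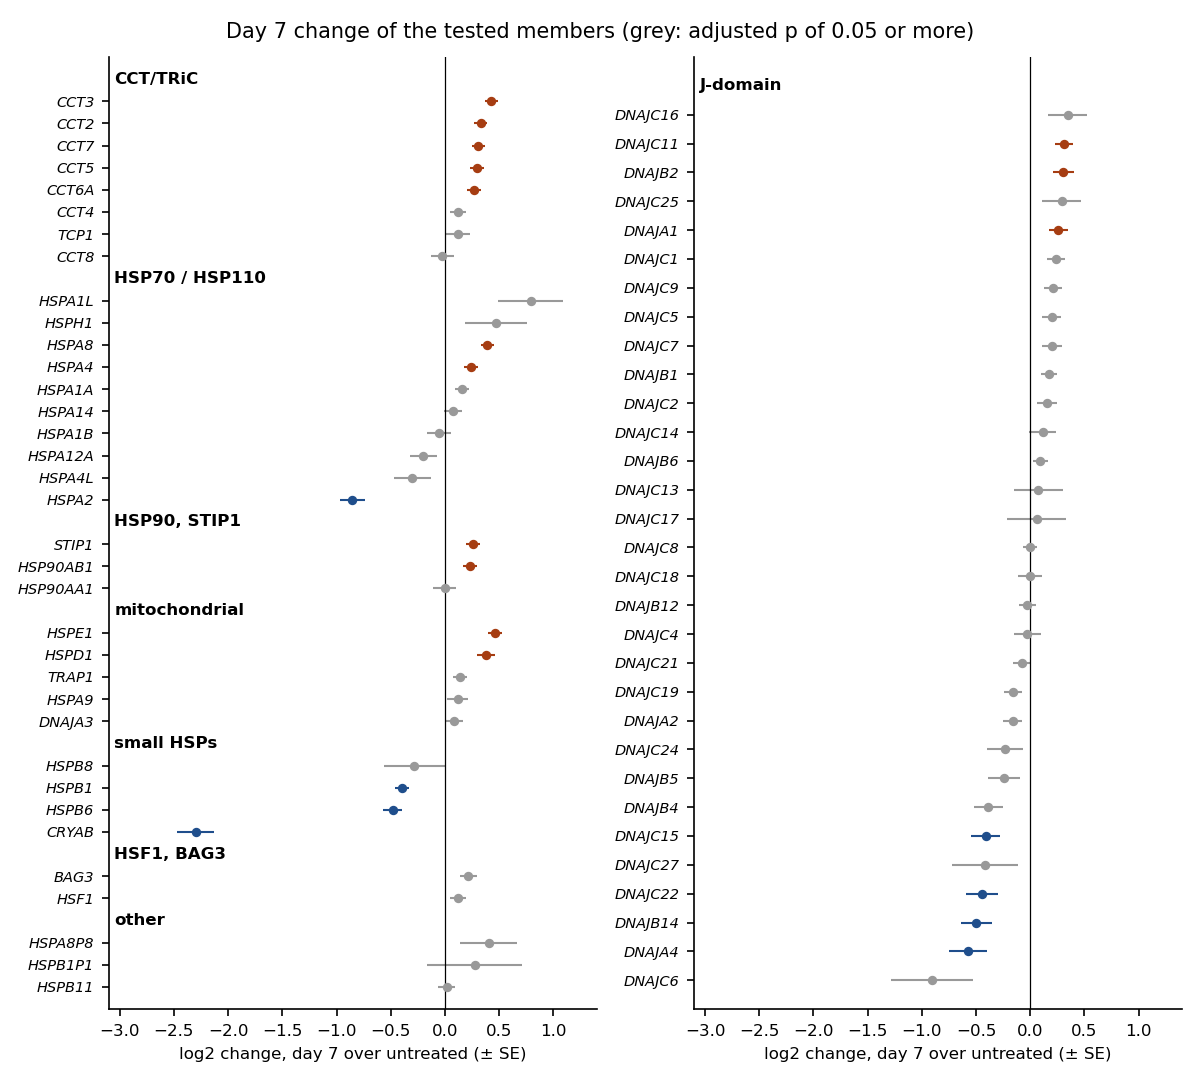
Log2 change at day 7 over untreated (x axis, point and SE) for the 66 tested genes, grouped by role, with J-domain genes in the right panel. Red points rose, blue points fell, and grey points did not pass the test. CRYAB at -2.30 lies far from the others, and the called rises all lie between 0.23 and 0.46.

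Small heat shock proteins fell at day 7, with 3 of the 4 called and none higher. CRYAB (chromosome 11, 111908565 to 111923722, minus strand, GRCh38), which holds unfolded proteins and intermediate filaments, had the largest change of the 66. It stood at 23.3, 21.3 and 18.0 CPM in the untreated b2 libraries and at 5.08, 4.90, 3.84 and 6.02 CPM at day 7 of b2. In b1 it went from 33.8, 35.1 and 36.1 CPM to 3.98 CPM. Every day 7 library was below every untreated one, on 10 to 27 UMIs at day 7 and 50 to 163 untreated. The fall was 4.91-fold, a log2 change of -2.30 ± 0.17 (SE, adjusted p = 3.08e-09 by edgeR), and stayed between -2.43 and -2.09 when any 1 library was left out.

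HSPB1 (chromosome 7, 76302544 to 76304295, plus strand), the HSP27 protein that binds unfolded clients and actin, fell by less from a far higher level. It stood at 1271, 1170.4 and 1232 CPM untreated and at 950.2, 826, 809.6 and 946 CPM at day 7 in b2, and at 1340.4, 1281 and 1298 CPM untreated and 1118 CPM at day 7 in b1. Here too all day 7 libraries were below all untreated ones. The log2 change was -0.40 ± 0.07 (SE, adjusted p = 0.000295 by edgeR), a 1.32-fold fall.

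HSPB6 (chromosome 19, 35754569 to 35758079, minus strand), the HSP20 protein, was at 61.9, 59.0 and 71.7 CPM untreated and at 40.9, 43.5, 41.0 and 40.1 CPM at day 7 in b2. In b1 it was at 120.1, 125 and 134 CPM untreated and 110.4 CPM at day 7. The groups were apart within each batch, although the b1 day 7 library was above every b2 library. HSPB6 fell by 0.48 ± 0.09 on the log2 scale (SE, adjusted p = 0.000787 by edgeR). HSPB8, the partner of BAG3, was at 1.73 to 4.90 CPM and did not pass the test, with a log2 change of -0.28 ± 0.28 (SE, adjusted p = 0.546 by edgeR).

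Of the 8 tested genes of the cytosolic chaperonin 5 rose at day 7 (CCT2, CCT3, CCT5, CCT6A and CCT7), and their median log2 change was 0.28. All are subunits of the ring that folds actin and tubulin. CCT3 (chromosome 1, 156308968 to 156367873, minus strand) had the largest rise, from 531, 505 and 502 to 699.9, 678, 643 and 683 CPM in b2 and from 489.9, 479.8 and 487 to 686 CPM in b1. All 5 day 7 libraries were above all 6 untreated ones. Its log2 change was 0.43 ± 0.06 (SE, adjusted p = 1.88e-05 by edgeR), 1.35-fold.

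CCT2 (chromosome 12, 69585334 to 69601570, plus strand) went from 415, 414 and 373 to 499, 543, 517 and 507 CPM in b2 and from 353, 329.7 and 359.9 to 413 CPM in b1. The groups did not overlap within either batch, and the log2 change was 0.33 ± 0.06 (SE, adjusted p = 0.000858 by edgeR). CCT5 (chromosome 5, 10249921 to 10266412, plus strand) went from 682, 702 and 711 to 898, 835, 828 and 943 CPM in b2 and from 692, 646 and 679 to 785 CPM in b1. All its day 7 libraries were above all untreated ones. CCT5 rose by 0.30 ± 0.06 (log2, SE, adjusted p = 0.00188 by edgeR).

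CCT7 went from 416, 454 and 461 to 572, 530.1, 522 and 585 CPM in b2 and from 569, 554 and 532 to 675 CPM in b1, a log2 change of 0.31 ± 0.06 (SE, adjusted p = 0.00142 by edgeR). CCT6A, at 523, 516 and 524 CPM untreated and 712, 625, 649.9 and 655 CPM at day 7 in b2, rose by 0.27 ± 0.07 (log2, SE, adjusted p = 0.0078 by edgeR). Its b1 day 7 library, at 565 CPM, lay inside the b1 untreated range of 495 to 573 CPM. The remaining subunits TCP1, CCT4 and CCT8 had log2 changes of 0.12 ± 0.11, 0.12 ± 0.07 and -0.03 ± 0.11 (SE) and did not pass the test. CCT4 went from 428, 378 and 426 to 430.4, 468, 467 and 536 CPM in b2 and from 407, 378 and 404 to 369.8 CPM in b1. CCT8 was at 175, 153 and 167 CPM untreated and 149, 191, 198 and 187 CPM at day 7 in b2, and at 144, 158 and 175 CPM untreated and 115 CPM at day 7 in b1. For TCP1, CCT4 and CCT8 the b1 day 7 library was below all 3 of its untreated libraries. The 5 calls held with each library left out, while CCT6A and CCT7 lost theirs without the batch term (adjusted p = 0.0754 and 0.340 by edgeR).

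**Figure D2:**
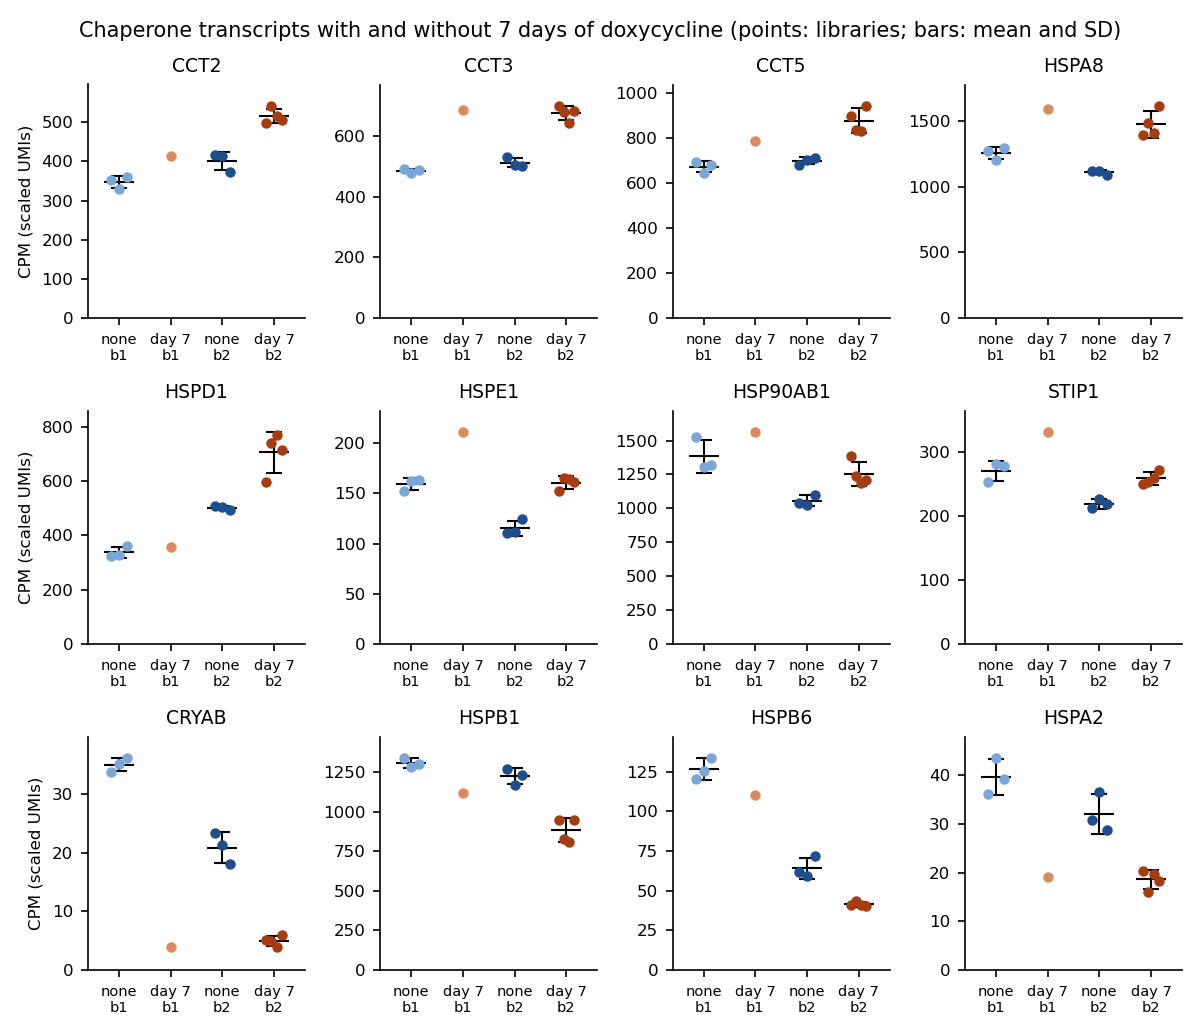
Level of 12 chaperone transcripts (y axis, CPM of TMM-scaled UMIs, from 0) in each library of the day 7 table, untreated ("none") and day 7, by batch. Points are libraries, and bars are the mean and SD where a group has more than 1 library. CRYAB, HSPB1 and HSPA2 at day 7 lie below every untreated library, and CCT3, CCT5 and HSPA8 lie above every untreated library.

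Among the cytosolic HSP70 and HSP110 genes, 10 were tested, 2 rose and 1 fell. The called share was 30%, against 15.7% of all genes tested (8.43% higher and 7.28% lower). HSPA8 (chromosome 11, 123057489 to 123063230, minus strand), the constitutive HSC70, rose from 1119, 1122 and 1095 to 1393, 1489, 1411 and 1619.6 CPM in b2 and from 1273, 1209 and 1296 to 1597 CPM in b1. No day 7 library was as low as any untreated one. Its log2 change was 0.39 ± 0.06 (SE, adjusted p = 0.000112 by edgeR), although 17 annotated pseudogenes named for HSPA8 could share reads with it. HSPA4, an HSP110 protein that exchanges the nucleotide of HSP70, rose by 0.24 ± 0.06 (log2, SE, adjusted p = 0.0118 by edgeR). It went from 292, 310.1 and 296 to 387, 350.1, 364 and 375 CPM in b2, and from 242, 257 and 243 to 263 CPM in b1. The call of HSPA4 was lost without untreated b2-1 (adjusted p = 0.0547 by edgeR) and with library size alone (0.0689).

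HSPA2 (chromosome 14, 64535905 to 64546173, plus strand), an HSP70 best known from the testis, was the member of this family that fell. It stood at 30.8, 36.6 and 28.8 CPM untreated and 20.3, 16.1, 19.7 and 18.3 CPM at day 7 in b2, and at 36.3, 43.7 and 39.3 CPM untreated and 19.1 CPM at day 7 in b1. All day 7 libraries were below all untreated ones. The log2 change was -0.86 ± 0.11 (SE, adjusted p = 1.81e-05 by edgeR), a 1.81-fold fall.

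The stress-inducible pair HSPA1A and HSPA1B did not pass the test at day 7. HSPA1A was at 155, 173 and 169 CPM untreated and 192, 192, 169.8 and 176 CPM at day 7 in b2, and at 230.3, 223 and 226 CPM untreated and 262 CPM at day 7 in b1. The b2 groups overlap, and the log2 change was 0.16 ± 0.07 (SE, adjusted p = 0.105 by edgeR). HSPA1B, at 25.1 to 33.2 CPM over all 11 libraries, had a log2 change of -0.06 ± 0.11 (SE, adjusted p = 0.772 by edgeR), with a 95% interval of -0.29 to 0.17. HSPH1 had a pooled log2 change of 0.47 ± 0.29 (SE, adjusted p = 0.314 by edgeR) and HSPA1L, a testis-rich HSP70, of 0.79 ± 0.30 (adjusted p = 0.075 by edgeR).

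In the HSP90 system HSP90AB1 and STIP1 rose and HSP90AA1 did not pass the test. HSP90AB1 (chromosome 6, 44246166 to 44253888, plus strand), the constitutive cytosolic HSP90, went from 1042, 1023 and 1102 to 1384, 1239, 1186 and 1207 CPM in b2 and from 1526, 1302 and 1319 to 1565 CPM in b1. The groups were apart within each batch, although every b1 untreated library exceeded most b2 day 7 libraries. Its log2 change was 0.23 ± 0.07 (SE, adjusted p = 0.0191 by edgeR). That call was lost without untreated b2-1 or b2-2 (adjusted p = 0.0605 and 0.0642 by edgeR) and with library size alone (0.0673).

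STIP1 (chromosome 11, 64185272 to 64204543, plus strand), which links HSP70 to HSP90, went from 212, 227 and 219.7 to 251, 254, 261 and 273 CPM in b2 and from 253, 282 and 279 to 332 CPM in b1. The groups did not overlap within a batch, and the log2 change was 0.26 ± 0.06 (SE, adjusted p = 0.00679 by edgeR). HSP90AA1 (chromosome 14, 102080738 to 102139699, minus strand), the stress-inducible HSP90, was at 1807, 1669 and 1605 CPM untreated and 1964, 1959, 2099.7 and 1634 CPM at day 7 in b2. In b1 it was at 869, 801 and 786 CPM untreated and 593 CPM at day 7. Those groups overlap in b2 and the b1 library is lower, with a pooled log2 change of -0.00 ± 0.10 (SE, adjusted p = 0.984 by edgeR).

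All 5 genes listed here as mitochondrial chaperones had log2 changes above 0 at day 7, and the chaperonin pair HSPD1 and HSPE1 passed the test. The median of the 5 was 0.14, and that of all tested genes was -0.02. DNAJC11 and DNAJC15, also mitochondrial, are counted with the J-domain genes below, where the former rose and the latter fell. HSPE1 (chromosome 2, 197499994 to 197503457, plus strand), the lid of the folding chamber, went from 110.0, 111 and 124 to 152, 165, 164 and 161 CPM in b2 and from 152, 162 and 164 to 211 CPM in b1. Within each batch day 7 was above untreated, and the log2 change was 0.46 ± 0.07 (SE, adjusted p = 5.14e-05 by edgeR), 1.38-fold. HSPD1 (chromosome 2, 197486581 to 197516737, minus strand), the chamber itself, went from 507, 504 and 492 to 596, 740.2, 770.2 and 715 CPM in b2. In b1 it was at 325, 329 and 361 CPM untreated and at 358 CPM at day 7, inside the untreated range.

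HSPD1 rose by 0.38 ± 0.08 over both batches (log2, SE, adjusted p = 0.00262 by edgeR). The annotated bodies of HSPD1 and HSPE1 overlap on opposite strands, no source used here gives the strand setting of the counting, and 17 and 26 annotated pseudogenes carry their names. HSPA9, the HSP70 that draws proteins into the matrix, had a log2 change of 0.12 ± 0.10 (SE, adjusted p = 0.443 by edgeR). TRAP1, the mitochondrial HSP90, was at 165, 168 and 178 CPM untreated and 197, 179, 179 and 197 CPM at day 7 in b2, with a log2 change over both batches of 0.14 ± 0.07 (SE, adjusted p = 0.165 by edgeR). DNAJA3, the J-domain partner of HSPA9, did not pass the test either, at 0.09 ± 0.08 (log2, SE, adjusted p = 0.535 by edgeR).

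Of 31 tested J-domain genes outside the mitochondrial set, 3 rose and 4 fell at day 7, with a median log2 change of -0.00. The called share was 22.6%, against 15.7% of all genes tested (8.43% higher and 7.28% lower). DNAJC11, a protein of the mitochondrial outer membrane and cristae machinery, rose by 0.31 ± 0.08 (log2, SE, adjusted p = 0.0144 by edgeR). DNAJB2, a J-domain protein rich in neurons, was at 34.5, 39.5 and 43.6 CPM untreated and 60.4, 48.4, 44.8 and 42.6 CPM at day 7 in b2, and rose by 0.31 ± 0.10 (log2, SE, adjusted p = 0.037 by edgeR). Its b2 groups overlap by 1 library. DNAJA1, the main cytosolic partner of HSPA8, went from 251, 240.5 and 219 to 337, 282, 322 and 313 CPM in b2, while its b1 day 7 library at 220.0 CPM lay inside the b1 range of 218 to 262 CPM. The rise of DNAJA1 was 0.26 ± 0.09 (log2, SE, adjusted p = 0.0498 by edgeR).

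Lower J-domain genes were DNAJA4 (-0.57 ± 0.18), a cytosolic partner of HSP70, DNAJB14 (-0.50 ± 0.14), a protein of the endoplasmic reticulum membrane facing the cytosol, DNAJC22 (-0.44 ± 0.15) and DNAJC15 (-0.41 ± 0.13), an inner mitochondrial membrane protein of the import motor. These are log2 changes with SE, and the edgeR adjusted p values were 0.0289, 0.021, 0.0424 and 0.0394. In the day 7 libraries of b2 DNAJB14 stood at 11.8 to 17.9 CPM against 19.8 to 23.5 CPM untreated, DNAJC22 at 19.0 to 27.5 against 32.8 to 33.7 CPM, and DNAJC15 at 17.4 to 22.0 against 22.7 to 28.9 CPM. For these 3 the b2 groups did not overlap, whereas for DNAJA4 the highest day 7 value of 9.15 CPM exceeded the lowest untreated value of 9.00 CPM. DNAJC8, a splicing factor with the highest mean CPM of the family over the 11 libraries (in day 7 b2 DNAJA1 was higher), had a log2 change of -0.00 ± 0.07 (SE, adjusted p = 0.996 by edgeR), and DNAJB1, the partner of inducible HSP70, one of 0.18 ± 0.07 (adjusted p = 0.1 by edgeR).

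The J-domain calls were close to the threshold. DNAJA1 kept its call in 2 of 11 fits that each left out 1 library (without day 7 b1-13 or untreated b1-3), DNAJC15 and DNAJC22 in 3, DNAJB2 in 4, DNAJA4 in 7, DNAJB14 in 8 and DNAJC11 in 10. Over those fits the highest edgeR adjusted p was 0.165 for DNAJA1, 0.144 for DNAJC15, 0.112 for DNAJC22, 0.132 for DNAJB2, 0.119 for DNAJA4, 0.0895 for DNAJB14 and 0.0744 for DNAJC11. Scaling by library size alone ended the calls of DNAJA1, DNAJB2 and DNAJC11 (adjusted p = 0.183, 0.1 and 0.0584 by edgeR), and DESeq2 gave DNAJA4, DNAJC15 and DNAJC22 adjusted p values of 0.0607, 0.0813 and 0.0694.

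HSF1, the regulator of the heat shock genes, and BAG3, which couples HSP70 and HSPB8 to autophagy, did not pass the test at day 7. HSF1 was at 191, 192 and 215 CPM untreated and 190.1, 243, 214 and 229 CPM at day 7 in b2, and at 211, 200.3 and 218 CPM untreated and 222 CPM at day 7 in b1. The b2 groups overlap, and the log2 change was 0.12 ± 0.07 (SE, adjusted p = 0.264 by edgeR). BAG3 was at 106, 106 and 88.2 CPM untreated and 130.5, 129, 119.9 and 124 CPM at day 7 in b2, with no overlap. In b1 the day 7 library at 112 CPM was level with untreated libraries at 123, 112 and 113 CPM. The log2 change of BAG3 over both batches was 0.22 ± 0.08 (SE, adjusted p = 0.0739 by edgeR). Without the b1 day 7 library it was 0.33 and passed (adjusted p = 0.00653 by edgeR), and it passed also without untreated b1-1 (0.25, adjusted p = 0.0479 by edgeR). HSPB11 had a pooled log2 change of 0.01 ± 0.08 (SE, adjusted p = 0.928 by edgeR). Its b1 day 7 library, at 118 CPM, was above the b1 untreated range of 92.8 to 101 CPM, and its b2 groups overlapped at 81.4 to 91.8 CPM untreated and 72.5 to 85.0 CPM at day 7.

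In the b2 libraries alone 26 of the chaperone genes were called at day 7, 20 higher and 6 lower, against 14.5% of all 12032 genes in that fit, and 19 of the 26 were also called over both batches. The other 7 included 5 genes named here. TCP1 (log2 0.33, adjusted p = 0.00811 by edgeR), HSPA9 (0.30, 0.0190), BAG3 (0.34, 0.0121), DNAJB1 (0.26, 0.0353) and HSPH1 (0.82, 0.000637) were called in b2 alone and not over both batches. An interaction term asked whether the day 7 change was the same in each batch, and 4 of 66 chaperone genes passed, against 2.64% of all 12449 genes (1.12% higher in b1 and 1.52% lower). All 4 had a lower change in b1. Its day 7 group is 1 library, b1-13, which is assumed to vary like the other groups and cannot be left out.

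HSPH1 (chromosome 13, 31134974 to 31162388, minus strand), the stress-inducible HSP110, went from 26.7, 23.1 and 31.7 to 35.0, 50.1, 51.8 and 48.4 CPM in b2, and from 14.2, 25.3 and 24.2 to 10.4 CPM in b1. It was thus higher in every day 7 library of b2 and lower in that of b1, on 26 to 297 UMIs per library. Its change in b1 minus that in b2 was -1.82 ± 0.43 (log2, SE, adjusted p = 0.0329 by edgeR). TCP1 (chromosome 6, 159778498 to 159789749, minus strand), a subunit of the TRiC ring, went from 429, 426 and 461 to 477, 528, 560.3 and 604 CPM in b2 and from 478, 505 and 580.1 to 405 CPM in b1. The difference was -0.67 ± 0.15 (log2, SE, adjusted p = 0.0123 by edgeR).

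HSP90AA1, whose levels are given above, differed by -0.64 ± 0.15 (log2, SE, adjusted p = 0.0139 by edgeR) between the batches. HSPA9 (chromosome 5, 138553756 to 138575724, minus strand) went from 165, 160.2 and 153 to 215, 171, 191 and 197 CPM in b2 and from 111, 131 and 124 to 96.0 CPM in b1, a difference of -0.62 ± 0.16 (log2, SE, adjusted p = 0.0345 by edgeR). For these genes the b1 day 7 library lay below all 3 of its untreated libraries. DNAJA1 missed the threshold with a difference of -0.52 ± 0.15 (log2, SE, adjusted p = 0.0564 by edgeR) and passed it with library size alone (adjusted p = 0.0221 by edgeR). TCP1 and HSP90AA1 held in all 10 fits that left out another library. HSPH1 lost its call without untreated b1-2, b1-3, b2-1 or b2-2 or day 7 b2-18, b2-19 or b2-20 (edgeR adjusted p up to 0.077), and HSPA9 without untreated b1-2, b1-3, b2-2 or b2-4 or day 7 b2-19 (up to 0.0852). The count of 4 fell to 2 without untreated b1-2, b1-3 or b2-2 or day 7 b2-19. In those fits 1.54% to 1.85% of all genes were called. The count rose to 7 without day 7 b2-17, with 5.35% of all genes called.

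**Figure D3:**
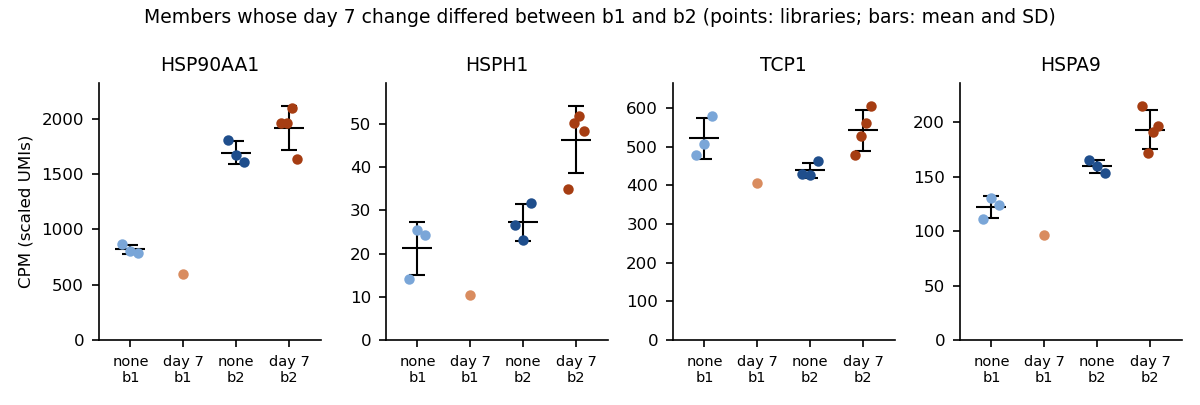
Level of HSP90AA1, HSPH1, TCP1 and HSPA9 (y axis, CPM of TMM-scaled UMIs, from 0) in each library, untreated ("none") and day 7, by batch, with bars for the mean and SD where a group has more than 1 library. The single b1 day 7 library is below its untreated libraries in each panel (593 CPM for HSP90AA1, 10.4 for HSPH1, 405 for TCP1 and 96.0 for HSPA9), while most b2 day 7 libraries are above theirs.

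By day 3 of doxycycline, in b2, CRYAB was already lower and part of the folding machinery already higher. These comparisons use the other count table, in which 68 of the 75 genes are listed and 61 were tested. At day 3 against untreated 6 of the 61 were called, 5 higher and 1 lower, against 3.51% of all 10586 genes (1.84% higher and 1.67% lower). Their median log2 change was 0.08, and that of all tested genes 0.00. From day 3 to day 7 the test called 5, 3 higher and 2 lower, against 5.07% of all genes (2.76% higher and 2.31% lower), with medians of 0.07 and 0.01. Both comparisons use the same day 3 libraries and the untreated and day 7 libraries are shared with the day 7 table, so the values are given side by side and not as separate evidence.

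CRYAB went from 28.6, 26.1 and 21.7 CPM untreated to 12.8, 9.46, 10.3 and 11.8 CPM at day 3 and 6.17, 5.90, 4.67 and 7.29 CPM at day 7. The 3 groups did not overlap. The log2 change was -1.21 ± 0.18 at day 3 (SE, adjusted p = 7.39e-05 by edgeR) and -0.90 ± 0.21 from day 3 to day 7 (adjusted p = 0.00886 by edgeR), the latter lost without day 3 b2-10 (-0.81, adjusted p = 0.053 by edgeR). HSPB1 was at 1521, 1398 and 1453 CPM untreated, 1253, 1232, 1411 and 1285 CPM at day 3, and 1132, 968, 963 and 1088 CPM at day 7. One day 3 library lay in the untreated range, and all day 7 libraries lay below the other groups. Its log2 change at day 3 was -0.17 ± 0.07 (SE, adjusted p = 0.208 by edgeR), and that from day 3 to day 7 was -0.32 ± 0.07 (adjusted p = 0.0029 by edgeR). HSPB6 at day 3 spread from 44.5 to 85.9 CPM, across the ranges of both other groups, and passed neither test (adjusted p = 0.393 and 0.0829 by edgeR). Its fall from day 3 to day 7 passed without day 3 b2-9 (-0.53, adjusted p = 0.0044 by edgeR).

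HSPD1 was at 429, 460.4 and 443 CPM untreated, 607, 594, 580.1 and 639.9 CPM at day 3, and 548, 707, 759.6 and 679 CPM at day 7. All day 3 and day 7 libraries were above the untreated ones, and the treated groups overlap. Its log2 change was 0.44 ± 0.08 at day 3 (SE, adjusted p = 0.00149 by edgeR) and 0.16 ± 0.08 from day 3 to day 7 (adjusted p = 0.264 by edgeR). The latter passed without day 7 b2-17 (0.24, adjusted p = 0.00917 by edgeR). HSPE1, its partner, was at 154, 157 and 172 CPM untreated and 203, 187, 210.5 and 158 CPM at day 3, with a log2 change of 0.25 ± 0.08 (SE, adjusted p = 0.105 by edgeR). One day 3 library, b2-9 at 158 CPM, lay in the untreated range, and without it the rise was 0.32 and passed (adjusted p = 0.028 by edgeR).

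Among the chaperonin subunits CCT3 was at 584, 570.0 and 566 CPM untreated, 673, 672, 687 and 703 CPM at day 3, and 805, 772, 729.9 and 752 CPM at day 7. The 3 groups of CCT3 did not overlap, with log2 changes of 0.25 ± 0.06 at day 3 (SE, adjusted p = 0.0211 by edgeR) and 0.16 ± 0.06 from day 3 to day 7 (adjusted p = 0.11 by edgeR). CCT2 was at 472, 483 and 430.1 CPM untreated, 566, 513, 555 and 558 CPM at day 3, and 561, 629, 602 and 581 CPM at day 7. It rose by 0.24 ± 0.07 at day 3 (log2, SE, adjusted p = 0.0409 by edgeR). TCP1 was at 479, 482 and 519.7 CPM untreated, 653, 602, 614 and 548 CPM at day 3, and 552, 606, 648 and 674 CPM at day 7, a log2 change of 0.29 ± 0.08 at day 3 (SE, adjusted p = 0.0234 by edgeR). For both genes the treated groups lay above the untreated one and overlapped each other.

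STIP1 was at 218, 233 and 218 CPM untreated, 259.9, 273, 272 and 272 CPM at day 3, and 273, 272, 275 and 285 CPM at day 7. It rose by 0.27 ± 0.07 at day 3 (log2, SE, adjusted p = 0.0183 by edgeR), and its change from day 3 to day 7 was 0.04 ± 0.06 (adjusted p = 0.808 by edgeR). Of the 6 day 3 calls, those of CRYAB and HSPD1 held with every library left out. The lowest counts were 2 calls, without day 3 b2-12 (2.14% of all genes called) or untreated b2-1 (1.99%). Next were 3 calls, without untreated b2-2 (1.79%) or b2-4 (1.90%). Without day 3 b2-9 CCT2 and CCT3 also lost theirs (adjusted p = 0.0956 and 0.0634 by edgeR), and with library size alone so did CCT2 and TCP1 (adjusted p = 0.0972 and 0.0732 by edgeR).

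HSPA8, DNAJA1 and DNAJB1, an HSP70 and a pair of its J-domain partners, rose from day 3 to day 7 without having passed the test at day 3. HSPA8 was at 1407, 1403 and 1365 CPM untreated, 1467, 1523, 1516 and 1587 CPM at day 3, and 1728, 1839.7, 1754 and 1939 CPM at day 7, with no overlap of the 3 groups. Its log2 change was 0.13 ± 0.06 at day 3 (SE, adjusted p = 0.312 by edgeR) and 0.25 ± 0.06 from day 3 to day 7 (adjusted p = 0.00855 by edgeR). DNAJA1 was at 276, 251 and 233 CPM untreated, 245, 275, 249.6 and 266 CPM at day 3, and 363, 289, 327 and 288 CPM at day 7. Only the day 7 libraries stood above the others, and the log2 change from day 3 was 0.29 ± 0.08 (SE, adjusted p = 0.0177 by edgeR).

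DNAJB1 was at 142, 133 and 149 CPM untreated, 126, 134, 121 and 145 CPM at day 3, and 185, 163, 154 and 146 CPM at day 7. The lowest day 7 value was just above the highest day 3 value and inside the untreated range, and the log2 change from day 3 was 0.30 ± 0.08 (SE, adjusted p = 0.0229 by edgeR). The call of HSPA8 was lost without day 7 b2-20 (adjusted p = 0.0528 by edgeR), that of DNAJA1 without day 3 b2-10 or b2-12 or day 7 b2-19 (0.0825, 0.0668 and 0.0583), and that of DNAJB1 without day 3 b2-10 or b2-12 or day 7 b2-17 or b2-18 (0.0909, 0.101, 0.0601 and 0.0522). The count of 5 fell to 3 without day 3 b2-10 or b2-12, with 3.64% and 3.65% of all genes called. Whether the change up to day 3 differed from the change after it was not tested for any gene.

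**Figure D4:**
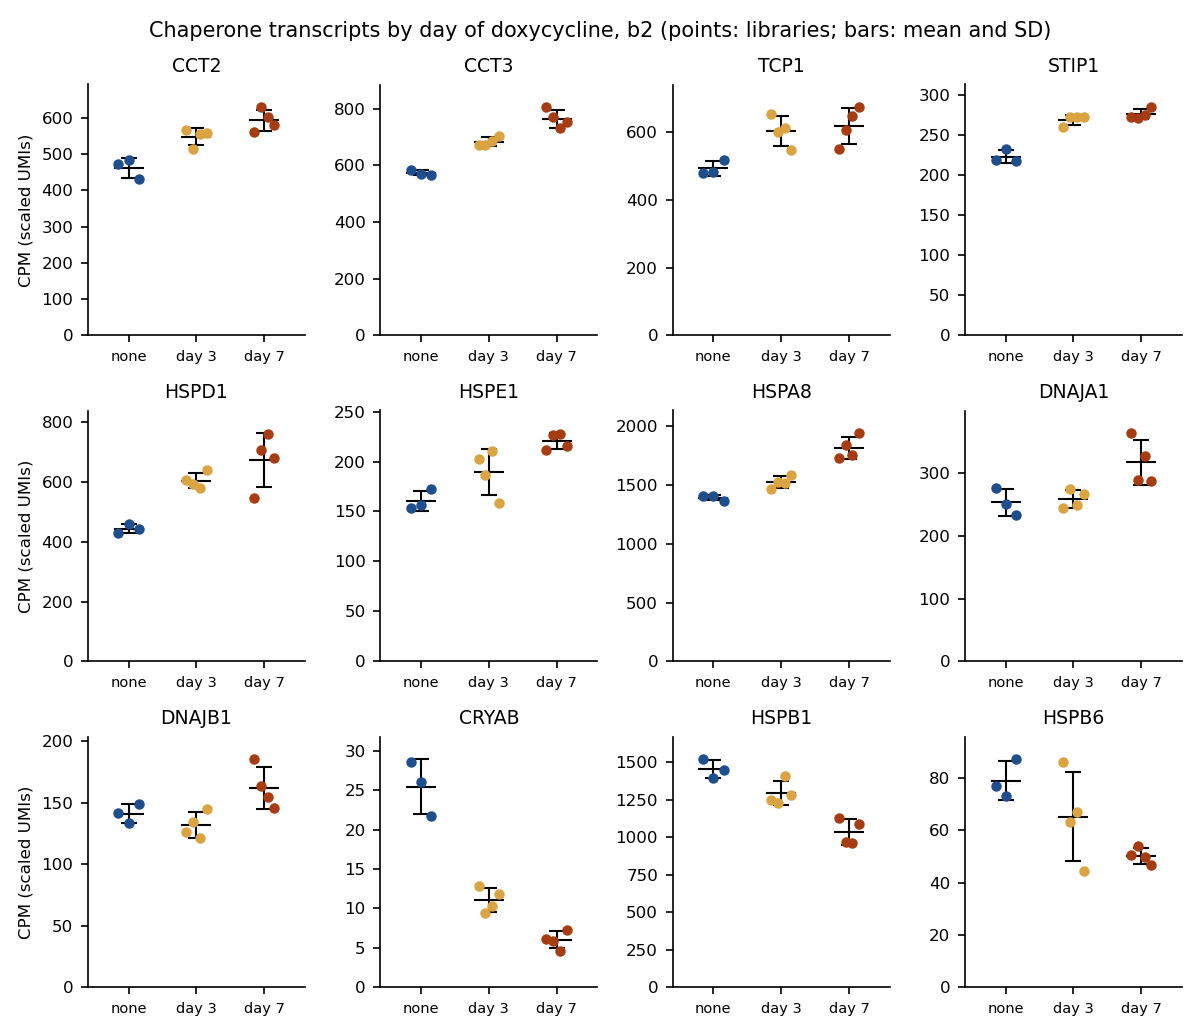
Level of 12 chaperone transcripts (y axis, CPM of TMM-scaled UMIs, from 0) in the b2 libraries of the day 3 and day 7 table: untreated ("none"), day 3 and day 7. Points are libraries, bars the mean and SD. CRYAB, CCT3 and HSPA8 form 3 separate groups of points, HSPD1 and TCP1 are up at day 3 with overlapping treated groups, DNAJA1 at day 7 lies above both other groups, and DNAJB1 at day 7 lies above day 3 but overlaps the untreated libraries.

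The inducible HSP70 pair did not pass the test at day 3 (HSPA1A -0.06 ± 0.08 and HSPA1B -0.27 ± 0.13, log2 and SE, adjusted p = 0.736 and 0.311 by edgeR), nor did HSF1 (0.09 ± 0.08, adjusted p = 0.624 by edgeR) or BAG3 (0.21 ± 0.08, adjusted p = 0.161 by edgeR). HSP90AA1 was at 339.7, 295 and 327 CPM untreated, 526, 396, 496 and 477 CPM at day 3, and 247, 444, 421 and 495 CPM at day 7. Every day 3 library was above every untreated one, yet the log2 change of 0.57 ± 0.22 (SE, adjusted p = 0.233 by edgeR) did not pass. The day 7 library b2-17, at 247 CPM, was below all others in this table and entered the shared estimate of the spread. As counted in the day 7 table, the same library was at 1964 CPM. This table kept 10.4% (b2-17) to 25.9% of the HSP90AA1 UMIs of the shared libraries. The day 3 libraries are in this table alone, so their kept share is not known. Without day 7 b2-17 the day 3 change of HSP90AA1 was 0.56 and passed (adjusted p = 8.9e-05 by edgeR), which does not settle its level.

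The same 7 b2 libraries are in both tables, with different counts for part of the chaperones. Of the 68 genes in both tables, 17 had under 66.7% of the UMIs that the day 7 table gives, 31 had 90% to 110%, and the median was 89.0%. CCT5 went from 23865 UMIs to 215 (0.901%), so its log2 change of 0.20 ± 0.30 at day 3 (SE, adjusted p = 0.805 by edgeR) says little. HSP90AA1 kept 16.8% of its UMIs, DNAJC15 5.47%, DNAJC21 9.68%, HSPA4L 19.4%, DNAJB14 23.2%, DNAJC22 25.7% and HSPA9 47.8%, and HSPH1 is not listed in the other table. By contrast CRYAB (100%), HSPB6 (101%), HSPA8 (102%), CCT7 (100%) and BAG3 (100%) had nearly equal counts, and HSPE1 had more (114%). Of the other genes called at day 3 or from day 3 to day 7, HSPD1 kept 77.5%, DNAJB1 81.4%, DNAJA1 85.1% and STIP1 86.5%. CCT3, TCP1, CCT2 and HSPB1 kept 93.2% to 97.8%. The share of HSPD1 ran from 69.1% in untreated b2-1 to 81.3% in day 7 b2-20, and was lower in each untreated library than in each day 7 library. The same held for STIP1, from 82.1% in untreated b2-4 to 89.8% in day 7 b2-17. It held also for TCP1, from 91.1% in untreated b2-1 to 95.6% in day 7 b2-20. For CCT2 and CCT3 the shares of the untreated and day 7 libraries overlapped. For the day 3 libraries no such share can be given. Mitochondrially encoded transcripts took 0% of UMIs in every library of the day 3 and day 7 table. As counted in the day 7 table, the shared b2 libraries had 1.23% to 1.31% untreated and 1.58% to 1.72% at day 7. No source used here says which step made the tables differ. With the b2 libraries as counted in the other table, 20 genes were called at day 7 (16 higher and 4 lower), against 15.6% of all 10586 genes. Among the 20 were 16 of the 22 above. CCT5, DNAJA4, DNAJB14, DNAJB2 and DNAJC22 had log2 changes of 0.74, -0.59, -0.54, 0.33 and -0.51 there without passing the test (adjusted p = 0.0507, 0.0531, 0.205, 0.0626 and 0.119 by edgeR), and DNAJC15 had too few counts there to be tested. DNAJB14, DNAJB2 and DNAJC15 also missed the threshold with b2 alone as counted for day 7 (adjusted p = 0.0519, 0.0648 and 0.0619 by edgeR).

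**Figure D5:**
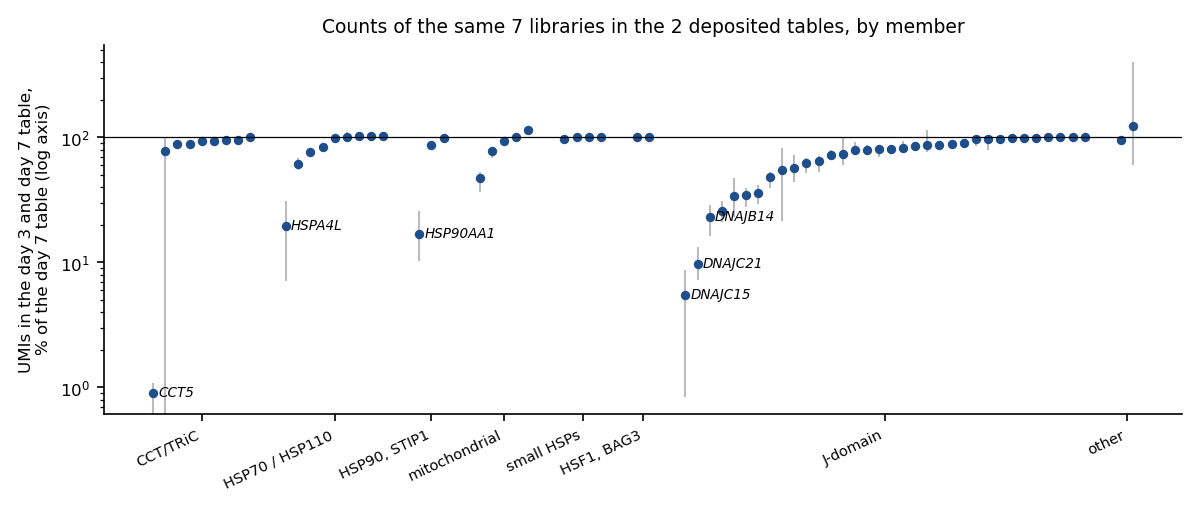
UMIs of each of 68 chaperone genes in the day 3 and day 7 table as a percentage of those in the day 7 table, summed over the 7 shared libraries (y axis, log scale), grouped by role. Grey lines run from the lowest to the highest single library and leave the axis where a library has very few UMIs. Of the 68 points 31 lie between 90% and 110%, and CCT5 at 0.901%, DNAJC15 at 5.47% and DNAJC21 at 9.68% lie far below.

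Genes that work beside these chaperones were counted in lists chosen for their function. At day 7, when 8.43% of all genes tested were called higher and 7.28% lower, 6 of 23 tested HSP90 and HSP70 co-chaperones rose and none fell, with a median log2 change of 0.07. AHSA1, the activator of the HSP90 ATPase, had the smallest p of them (0.36 ± 0.08, log2 and SE, adjusted p = 0.00206 by edgeR). Of 17 prefoldin, phosducin-like and tubulin-folding genes, which hand clients to TRiC or take tubulin from it, 3 rose and none fell, led by the prefoldin subunit PFDN1 (0.29 ± 0.06, adjusted p = 0.00385 by edgeR). Among 12 genes of mitochondrial import, folding and proteolysis none rose and 1 fell, CLPX, the unfoldase of the matrix protease (-0.29 ± 0.10, adjusted p = 0.0458 by edgeR). None of 3 other heat shock factor genes was called. Of 12 chaperones of the endoplasmic reticulum 4 rose, led by the lectin chaperone CALR (0.32 ± 0.06, adjusted p = 0.000494 by edgeR).

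At day 3, when 1.84% of all genes tested were called higher, the endoplasmic reticulum list had 2 genes higher of 12, with CALR at 0.29 ± 0.07 (log2, SE, adjusted p = 0.0139 by edgeR), and the other 4 lists had no gene called. From day 3 to day 7, when 2.76% of all genes tested were called higher, AHSA1 (0.25 ± 0.07, adjusted p = 0.0351 by edgeR) was the 1 co-chaperone of 20 that rose, PFDN1 (0.21 ± 0.06, adjusted p = 0.0493 by edgeR) the 1 of 17 in its list, and CANX, the membrane-bound lectin chaperone (0.28 ± 0.07, adjusted p = 0.0166 by edgeR), led 2 of 12 in the endoplasmic reticulum. Of the difference between batches, CHORDC1, an HSP90 co-chaperone, was lower in b1 (-1.14 ± 0.29, adjusted p = 0.0311 by edgeR) and TBCB, a tubulin cofactor, higher (0.56 ± 0.13, adjusted p = 0.0157 by edgeR).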

How the data were processed

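The authors deposited 2 tables of whole-number UMI counts per gene and library, made per the submitters' processing notes with bcl2fastq, cutadapt, STAR 2.4.2a, HTSeq and DESeq2 on hg38. Both list only genes with at least 6 counts in some library, 15230 and 12575 genes, and 55 other per-sample columns were not used. In the day 3 and day 7 table, 2 untreated columns carry descriptions shared by b1 and b2 samples and were read as b2, because the column names as a set match the b2 titles.

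Each table was fitted apart: genes kept by filterByExpr (12449 and 10586), TMM scaling, and the robust quasi-likelihood test of edgeR 4.0.16 (R 4.3.3), batch being a term for the day 7 table, and Benjamini-Hochberg adjustment over all genes tested (threshold 0.05). The interaction of batch and doxycycline used the same genes. Each SE is the size of the log2 change divided by the square root of the test's F statistic. The 95% interval was built from that SE. The fits were tested on simulated data. Alternatives were DESeq2 1.42.0, its size factors in edgeR, library size alone, no filter, no batch term, b2 alone, the other table, and each library left out.

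Genes named with values are those called in a comparison, the most abundant of each role, and a fixed set of well-known chaperones. From the neighbouring lists it is the called gene with the smallest p. The genes and lists were chosen with earlier results of these data known. Positions are from GENCODE v29 on GRCh38, which matched 75 of 75 symbols, and promoters from RefSeq (GRCh38.p14). Python 3.11.15 and matplotlib 3.10.9 made the figures.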

Additional observations from a re-analysis of the deposited data

Results flagged for a closer look

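In 100 groups of 4 libraries of the chaperone genes named with values, the gap of the highest or lowest library to its neighbour was set against Dixon's 95% critical value for 4 libraries, which chance exceeds in about 1 of 20 groups. It was exceeded by none of them in the day 7 table and by 5 genes in the day 3 and day 7 table: CCT5 at 10.3 CPM in day 3 b2-12, DNAJC22 at 10.8 CPM in day 3 b2-11, HSF1 at 226 CPM in day 3 b2-9, STIP1 at 259.9 CPM in day 3 b2-10 and HSPB11 at 81.3 CPM in day 7 b2-20. CCT5 rests on 11 to 26 UMIs in the day 3 libraries of that table. Outside those groups, and chosen after its values were seen, HSP90AB3P, named as a pseudogene of HSP90AB1, was at 27.7 CPM (124 UMIs) in day 7 b2-20 and at 0 in the other b2 libraries of the day 7 table.

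The day 7 change differed between batches for 4 genes by the test of the difference itself, given as the log2 change in b1 minus that in b2: HSPH1 by -1.82, TCP1 by -0.67, HSP90AA1 by -0.64 and HSPA9 by -0.62. Each rests on the single b1 day 7 library.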

How the results depend on the processing

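The count of chaperone genes called at day 7 was 22 and went to 7 without the batch term, where the share of all genes called went from 15.7% to 2.71% and DNAJB2 turned to a log2 change of -0.10 (edgeR adjusted p = 0.931). The cause was not tested. Under the other settings it was 19 with DESeq2 (11.5% of all genes), 23 with DESeq2's size factors (15.7%), 18 with library size alone (16.8%), 21 with no filter (12.9%), 26 in b2 alone (14.5%) and 20 in the other table (15.6%). Leaving out 1 library gave 14 (11.1% of all genes called) to 28 (15.8%) calls at day 7. At day 3 it gave 2 (1.99% or 2.14%) to 8 (5.51%), against 6 with all libraries. From day 3 to day 7 it gave 3 (3.64% or 3.65%) to 7 (6.15%), against 5 with all. For the difference between batches it gave 2 (1.54% to 1.85%) to 7 (5.35%), against 4 with all. The largest counts include genes outside those 6, 5 and 4. At day 3 library size alone gave 4 calls (3.49% of all genes called). CCT2, CCT3, CCT5, CCT6A, CCT7, CRYAB, HSPA2, HSPA8, HSPB1, HSPB6, HSPD1, HSPE1 and STIP1, 13 of the 22, were called at day 7 in each of the 11 fits with 1 library left out. HSP90AA1, not called at day 7, moved from -0.00 to 0.19 without the b1 day 7 library and to 0.41 without the batch term.

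No paired analysis was possible because the untreated and treated groups share no replicate number, and the untreated samples of b1 and b2 that do share numbers were not compared. CRYAB had 10 to 27 UMIs per library at day 7, which limits the precision of its level there.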
